A study of Mus musculus with 2 samples.

Results

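The genes described are 9 members of the connexin and pannexin families, Gja1, Gja4, Gja5, Gjb2, Gjb5, Gjb6, Gjc1, Panx1 and Panx2, out of 43346 mouse genes in the deposited files. They were chosen by name, with earlier results of these data known. They were found through their gene identifiers in GENCODE M21, and all 9 matched. The 14 other connexin and pannexin genes of the mouse were read alongside, which makes 23 genes in all. The samples are whole bladders of B6NCrl mice (an inbred C57BL/6-derived strain) taken at postnatal day 0, 1 bladder from each of 2 pups of 1 pregnant female. The labels name no treatment and record no sex. For each pup 1 library was made from 10 ng of total RNA, with fragments above 200 nt and added spike-in RNAs, and the pair of libraries forms 1 group of separate animals (n = 2). The labels hold no contrast, so what can be described is the level of each gene and the difference between littermates. The libraries held 32564563 (pup 2) and 43653931 (pup 1) expected counts, the authors' estimate of reads per gene.

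Connexins are the subunits of gap junctions. A ring of connexins in the membrane of 1 cell docks with a ring in its neighbour, and the joined channel passes ions, calcium, ATP and other small molecules, which couples smooth muscle cells, endothelium and epithelial sheets. Pannexins resemble connexins in fold but mostly act alone in the outer membrane, where Panx1 is a known route of ATP release, and ATP released from the stretched urothelium is a signal of bladder filling. Connexins are sorted by sequence into alpha (Gja), beta (Gjb), gamma (Gjc), delta (Gjd) and epsilon (Gje) classes. Alpha and gamma connexins are known best from muscle and vessels, and beta connexins from epithelia.

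The sequences below are the promoter windows of the highest member, Gjb6, of the next, Gja1, and of Gjb2, the neighbour of Gjb6 on chromosome 14 that was far lower. Each runs 5′ to 3′ from 250 bases before to 50 bases after the RefSeq start (GRCm38.p6). The window of Gjb6 is chr14:57133562-57133861 on the minus strand, that of Gja1 is chr10:56377050-56377349 on the plus strand, and that of Gjb2 is chr14:57104653-57104952 on the minus strand. Capitals mark the GC box GGGCGG, the AP-1 motif TGANTCA, the TATA box TATAAA and the related TTAAAA, each searched on both strands.
Gjb6: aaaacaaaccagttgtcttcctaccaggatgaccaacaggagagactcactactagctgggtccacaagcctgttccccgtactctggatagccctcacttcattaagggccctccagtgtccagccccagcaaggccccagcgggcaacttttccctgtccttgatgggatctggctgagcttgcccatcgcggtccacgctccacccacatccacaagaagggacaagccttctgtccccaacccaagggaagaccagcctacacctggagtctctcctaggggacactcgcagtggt
Gja1: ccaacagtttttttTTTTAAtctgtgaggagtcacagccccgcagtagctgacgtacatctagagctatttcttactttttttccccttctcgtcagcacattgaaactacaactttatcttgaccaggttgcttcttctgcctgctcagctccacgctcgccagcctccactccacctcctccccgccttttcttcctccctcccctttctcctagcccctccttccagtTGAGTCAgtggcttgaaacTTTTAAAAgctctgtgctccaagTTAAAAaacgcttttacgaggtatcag
Gjb2: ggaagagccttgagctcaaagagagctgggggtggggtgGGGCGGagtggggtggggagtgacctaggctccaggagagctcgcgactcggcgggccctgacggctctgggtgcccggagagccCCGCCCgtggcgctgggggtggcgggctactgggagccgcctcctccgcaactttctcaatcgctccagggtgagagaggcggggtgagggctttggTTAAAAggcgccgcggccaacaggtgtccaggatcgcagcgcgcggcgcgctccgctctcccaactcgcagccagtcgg

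The 3 windows differ in composition. That of Gjb2 holds 70.0% G and C and 27 CpG pairs, 2 GC boxes, and a TTAAAA that begins 29 bases before the start. That of Gjb6 holds 57.3% G and C, 6 CpG pairs and none of the 4 motifs. That of Gja1 holds 47.7% G and C, 8 CpG pairs and an AP-1 motif that begins 19 bases before the start, with TTAAAA in 4 places, of which the pair at the start overlap each other. Over all 32851 promoter windows of this length the median was 52.7% G and C. A GC box lay in 35.7% of them, TTAAAA in 19.2%, TATAAA in 13.6% and the AP-1 motif in 7.81%. These matches are a description of letters in the windows. A window was matched for 7 of the 9 members, and of the other members with one, Gja4 and Gja5 hold 1 GC box each.

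Of the 9 members, 8 reached 1 TPM in both pups, where 58.5% of all 21474 annotated protein-coding genes did. The members were chosen with earlier results of these data known. Of the whole family 11 of 23 genes reached 1 TPM in both pups, and of the 14 outside the members 3 did. TPM is the authors' level per transcript length and library total, so genes can be set side by side on it. The members spanned more than 2 orders of magnitude, from 30.8 ± 1.09 TPM for Gjb6 to 0.24 ± 0.0424 TPM for Panx2 (mean ± SD, n = 2). By mean TPM the order was Gjb6, Gja1, Gjc1, Panx1, Gjb5, Gja4, Gjb2, Gja5 and Panx2. Most neighbours in that order were apart, in that the pups' values did not overlap, but Gja1 and Gjc1 overlapped and so did Panx1 and Gjb5. The whole family summed to 138 TPM in pup 2 and 144 TPM in pup 1, of which the 9 members held 85.6% in pup 2 and 87.3% in pup 1. These are whole organs, so fewer cells of a type and less RNA per cell cannot be told apart.

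**Figure D1:**
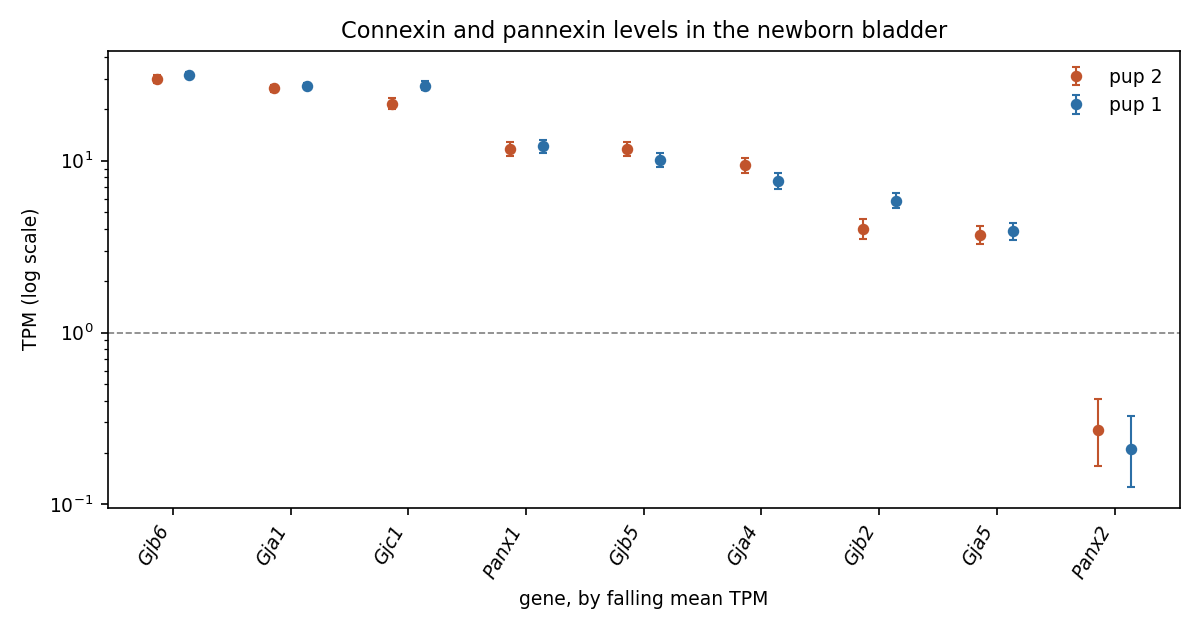
TPM on a log scale for the 9 genes described, in order of mean TPM, with pup 2 left of pup 1 for each gene. Bars are 95% exact Poisson intervals for counting error, and the dashed line marks 1 TPM. Gjb6 and Gja1 lead, and Panx2 lies below the line at 0.27 TPM in pup 2 and 0.21 TPM in pup 1.

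Among the connexins known from muscle and vessels, Gja1 and Gjc1 stood well above Gja4 and Gja5. Gja1 encodes Cx43, the most widely expressed connexin and a gap junction protein of detrusor smooth muscle and of fibroblasts, and its gene lies on chromosome 10 (56377330 to 56402513, mm10, plus strand). It had 26.4 TPM (1899 counts) in pup 2 and 27.3 TPM (2455 counts) in pup 1, and the pups lay close together. Gjc1 encodes Cx45, which joins smooth muscle and cardiac conduction cells and is needed for vessel development, and its gene lies on chromosome 11 (102799579 to 102819700, minus strand). It had 21.5 TPM (812 counts) in pup 2 and 27.3 TPM (1200 counts) in pup 1, so pup 2 was lower. The ratio of Gja1 over Gjc1 in TPM was 1.23 in pup 2 and 0.998 in pup 1.

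Gja4 and Gja5 encode Cx37 and Cx40, the gap junction proteins of arterial endothelium. Gja4 lies on chromosome 4, and Gja5 on chromosome 3 (96904693 to 97077416, plus strand). Gja4 had 9.38 TPM (356 counts) in pup 2 and 7.63 TPM (362 counts) in pup 1, and Gja5 had 3.70 TPM (251 counts) in pup 2 and 3.88 TPM (298 counts) in pup 1. The M21 span of Gja5 overlaps Gpr89 on the other strand, at 14.4 TPM in pup 2 and 16.8 TPM in pup 1. Gja4 was the higher of these endothelial connexins in both pups, by 2.54-fold in pup 2 and 1.97-fold in pup 1. All 5 endothelial markers were detected in both pups and summed to 80.4 TPM in pup 2 and 77.3 TPM in pup 1. Of these, Cldn5, a tight junction gene of endothelium, was at 31.8 TPM in pup 2 and 24.6 TPM in pup 1, while Pecam1 was at 25.2 TPM in pup 2 and 26.5 TPM in pup 1. The other markers of this list were, like Pecam1, lower in pup 2 in TPM. Cdh5 was at 11.5 TPM in pup 2 and 12.4 TPM in pup 1. Kdr was at 6.34 TPM in pup 2 and 6.77 TPM in pup 1, and Tek at 5.53 TPM in pup 2 and 6.98 TPM in pup 1. The part of endothelial content in the levels of Gja4 was not tested.

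The epithelial beta connexins took the largest summed share of any class, at 61.7 TPM or 44.5% of the family in pup 2 and 61.8 TPM or 42.9% in pup 1. Gjb6 encodes Cx30, known from the cochlea, brain astrocytes and stratified epithelium and mutated in human deafness and in a human skin disorder. It had 30.0 TPM (1433 counts) in pup 2 and 31.5 TPM (1874 counts) in pup 1. This was the highest level of the family, 1.14-fold above Gja1 in pup 2 and 1.16-fold above it in pup 1. By share of family counts, which are not divided by length, Gja1 led with 28.5% against 21.6% for Gjb6. Both pups placed Gjb6 above all other family members by TPM, and 82.3% of annotated protein-coding genes had a lower mean TPM.

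Gjb2 encodes Cx26, a frequent partner of Cx30 in mixed channels and the gene most often mutated in inherited human deafness. It had 4.01 TPM (221 counts) in pup 2 and 5.86 TPM (405 counts) in pup 1, with pup 2 lower. Although Gjb2 and Gjb6 lie 18.6 kb apart on chromosome 14 (57098600 to 57104702 and 57123303 to 57133611, mm10, both on the minus strand), Gjb6 exceeded Gjb2 by 7.48-fold in pup 2 and by 5.38-fold in pup 1. The lens connexin Gja3 lies 40.5 kb to the other side of Gjb2 and had 2 counts in each pup. 1 other gene, Gm4491, is annotated between Gjb2 and Gjb6.

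Gjb5 encodes Cx31.1, a connexin of skin and other stratified epithelia. It had 11.7 TPM (454 counts) in pup 2 and 10.1 TPM (490 counts) in pup 1. It shares a 46.8 kb stretch of chromosome 4 with Gja4, which lies at its other end (127311421 to 127314039), while Gjb5 lies from 127354809 to 127358181, both on the minus strand (mm10). Gjb5 exceeded Gja4 by 1.25-fold in pup 2 and by 1.32-fold in pup 1. Gjb6 in turn exceeded Gjb5 by 2.56-fold in pup 2 and by 3.12-fold in pup 1.

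**Figure D2:**
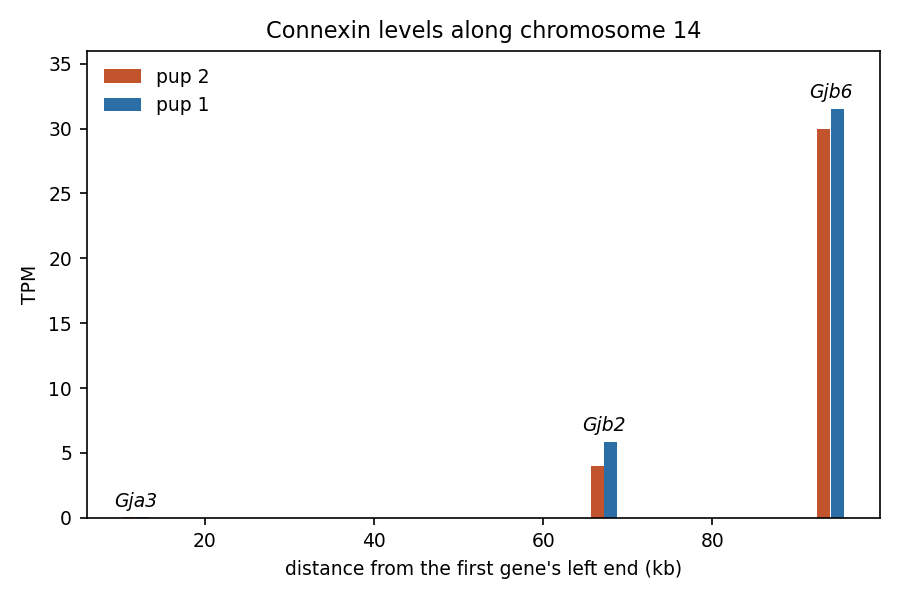
TPM of the connexin genes Gja3, Gjb2 and Gjb6 of chromosome 14, placed by the distance in kb of each gene's midpoint from the left end of Gja3, with the bar of pup 2 left of that of pup 1. Gjb6 stands above its neighbour Gjb2 in both pups, by 7.48-fold in pup 2 and 5.38-fold in pup 1.

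The bladder's epithelia are the setting in which beta connexins are usually found, and their markers were present. The superficial urothelium markers summed to 5690 TPM in pup 2 and 5953 TPM in pup 1 (5 of 5 detected). Basal urothelium markers summed to 1153 TPM in pup 2 and 1150 TPM in pup 1 (4 of 4 detected). Of 5 markers of squamous epithelium, 4 were detected, and the list summed to 134 TPM in pup 2 and 141 TPM in pup 1. Nearly all of that sum was Ivl, at 124 TPM in pup 2 and 134 TPM in pup 1. The lower Krt6a had 4.18 TPM in pup 2 and 1.74 TPM in pup 1, a log2 ratio of 1.34 (1.00 to 1.68), and was the squamous marker 2-fold higher in pup 2, while Krt13 had 1.61 TPM in pup 2 and 1.22 TPM in pup 1 (log2 ratio 0.95, 0.36 to 1.56). The other squamous markers had log2 ratios below 0, with intervals that held equality. Krt1, the marker not detected, had -0.40 (-1.04 to 0.23) on 35 counts in pup 2 and 61 in pup 1. Krt10 had -0.04 (-0.33 to 0.24) and Ivl had -0.03 (-0.08 to 0.02). The part of squamous epithelium in the level of Gjb5 in pup 2 was not tested. Smooth muscle markers summed to 48164 TPM in pup 2 and 53030 TPM in pup 1 (6 of 6 detected). The highest genes of these 4 lists were Upk3a, Krt15, Ivl and Actg2. Fibroblast markers, led by Col3a1, summed to 7051 TPM in pup 2 and 8108 TPM in pup 1, and pericyte markers, led by Rgs5, to 70.4 TPM in pup 2 and 78.3 TPM in pup 1 (4 of 4 detected in each list). Neuron markers, led by Uchl1, summed to 210.1 TPM in pup 2 and 236 TPM in pup 1 (4 of 5 detected), Schwann cell markers to 9.07 TPM in pup 2 and 8.54 TPM in pup 1 (4 of 4), and striated muscle markers, led by Acta1, to 7712 TPM in pup 2 and 8632 TPM in pup 1 (4 of 4). Nearly all of the neuron sum was Uchl1, at 198 TPM in pup 2 and 225 TPM in pup 1. Most of the striated muscle sum was Acta1, at 6667.5 TPM in pup 2 and 7283 TPM in pup 1. Which of these cell types held each connexin was not measured.

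**Figure D3:**
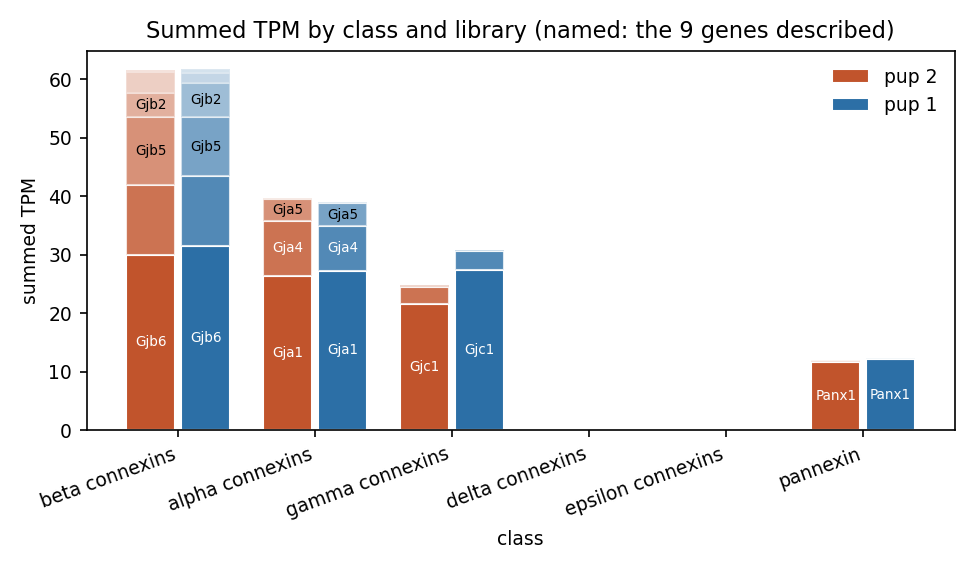
Summed TPM of the alpha, beta, gamma, delta and epsilon connexins and of the pannexins, with the stacked bar of pup 2 left of that of pup 1. Beta connexins reached 61.7 TPM in pup 2 and 61.8 TPM in pup 1, and gamma connexins, mostly Gjc1, reached 24.8 TPM in pup 2 and 30.7 TPM in pup 1.

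Of the pannexins, Panx1 was expressed and Panx2 stayed below 1 TPM. Panx1 forms large channels that release ATP and open when caspases cut the tail of the protein, and its gene lies on chromosome 9 (15002128 to 15045478, minus strand). It had 11.6 TPM (445 counts) in pup 2 and 12.1 TPM (567 counts) in pup 1. Panx2, known mainly from the brain and on chromosome 15 (89059734 to 89073567, plus strand), had 0.27 TPM in pup 2 (21 counts, 95% Poisson interval 0.167 to 0.413) and 0.21 TPM in pup 1 (19 counts, 0.126 to 0.328). By the authors' posterior mean TPM its average over the pups was 0.42 TPM in place of 0.24 TPM. By that estimate Panx2-201, a transcript of 355 nt with 0 expected counts in both pups, took 33.8% of Panx2 in pup 2 and 34.8% in pup 1. It overlaps the antisense RNA 1810021B22Rik, which had 35 counts in pup 2 and 33 in pup 1, and the strand setting is not given in the sources used here. For Panx2 the posterior SD of the count was 0 in both pups, so the estimator divided none of its counted reads with the antisense RNA. Panx3, known from bone and cartilage, had 1 count in pup 2 and 6 in pup 1.

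Among family genes outside the 9 members, Gjb1 and Gjc3, connexins of myelinating glia, stayed below 1 TPM. Gjb1 had 0.30 TPM in pup 2 and 0.78 TPM in pup 1, and Gjc3 had 0.34 TPM in pup 2 and 0.17 TPM in pup 1. The 3 delta connexins and Gje1 were almost silent: Gjd3 had 6 counts in each pup, and Gjd2, the neuronal connexin, Gjd4 and Gje1 had 0 in both. For Gjd2 a limit of 3 counts allows up to 0.0451 TPM in pup 2 and 0.0361 TPM in pup 1. Gja6 had 9 counts in pup 2 and 6 in pup 1, and Gja10 had 0 counts in pup 2 and 1 in pup 1.

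Between the littermates the members lay within the range of most genes. After TMM scaling of counts, the log2 ratio of pup 2 over pup 1 lay between -0.47 and 0.38 in the 8 members whose counts averaged 100 or more over the pups. The central 95% of all genes at that depth lay between -0.50 and 0.69. None of the 8 was 2-fold apart, where 1.98% of the 12733 genes at that depth were (1.7% higher and 0.283% lower in pup 2). The low member that missed this depth is Panx2. Of the 8, 6 were higher and 2 lower in pup 2 on scaled counts, where 5754 of the 12733 genes were higher and 6979 lower. On log2 TPM the split of the 8 was 2 higher and 6 lower. All 8 lay within 1.5-fold, as did 95.1% of all genes. With 1 library per animal no test across animals can be made, and the intervals given are exact binomial (Clopper-Pearson) intervals at 95% for counting error only. In 4 of the 8 the interval left out equality, beside 52.3% of all genes. It lay above equality in 2 members, beside 22.3% of genes, and below it in 2, beside 30.0% of genes. Their median log2 ratio was 0.04 and that of all genes -0.02.

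Gjb6, Gja1 and Panx1 were nearest to equal between the pups. Gjb6 had a log2 ratio of 0.02 (-0.08 to 0.12), Gja1 had 0.03 (-0.05 to 0.12) and Panx1 had 0.05 (-0.13 to 0.24). These 3 and Gja5, at 0.16 (-0.09 to 0.40), were slightly below 0 when log2 TPM was compared instead, a scale on which the median of all genes lay at -0.10. Gja4 had 0.38 (0.16 to 0.60) and Gjb5 had 0.29 (0.11 to 0.48), higher in pup 2, and Gjb2 had -0.47 (-0.71 to -0.23), lower in pup 2. Gjc1 had -0.16 (-0.29 to -0.03). Gjb5, Gja4, Gjb2 and Gjc1 kept these directions under every scaling tried, though the count scalings differ only by a small shift common to all genes. Panx2 had 0.55 with an interval of -0.42 to 1.52, so no difference was detectable on its 21 counts in pup 2 and 19 in pup 1.

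Blood and liver markers set the pups apart far more than any member did. Macrophage markers, led by Lyz2, summed to 1455 TPM in pup 2 and 354 TPM in pup 1 (4 of 4 detected and 4 of 4 at least 2-fold higher in pup 2). Erythroid markers, led by Hba-a2, summed to 54239 TPM in pup 2 and 19834 TPM in pup 1 (4 of 4 at least 2-fold higher). Liver markers, led by Apoa1, summed to 10.4 TPM in pup 2 and 46.1 TPM in pup 1 (3 of 3 at least 2-fold lower). Among low family genes outside the 9 members, Gjb1, also a connexin of hepatocytes, had -1.32 (-2.50 to -0.26) on 10 counts in pup 2 and 33 in pup 1, and Gjc3 had 1.12 (0.20 to 2.09) on 28 counts in pup 2 and 17 in pup 1. The part of liver RNA or blood in any of these values was not tested.

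**Figure D4:**
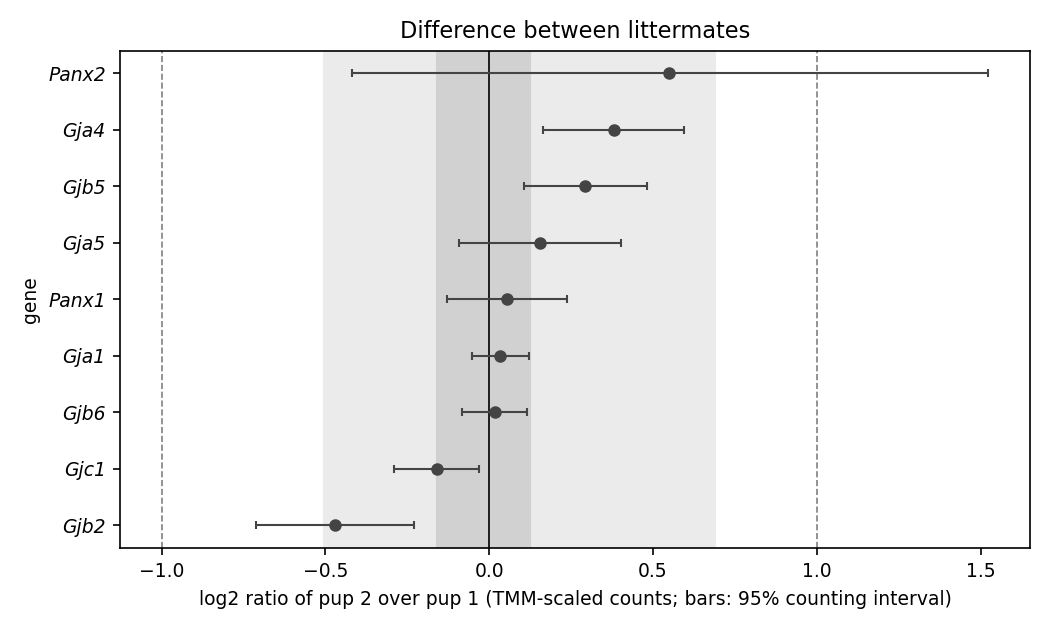
Log2 ratio of pup 2 over pup 1 for the 9 genes described, with 95% counting intervals as bars. The dark and light bands hold the central 50% and 95% of the genes whose counts average 100 or more, and dashed lines mark 2-fold. Gja1 sits at 0.03 and Gjb6 at 0.02, and Gja4 at 0.38 and Gjb2 at -0.47 are the farthest from 0 among the genes other than Panx2.

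At transcript level most connexin members were simple, and Gjc1 and Panx1 were not. The whole coding sequence lies in 1 exon in the leading transcript of each of the 7 connexin members, and Gja1, Gja4, Gjb2 and Gjb5 had a single transcript in the deposited files. Gjb6 was nearly all Gjb6-201, at 99.4% of the gene's TPM in pup 2 and 98.3% in pup 1. At gene level the posterior SD of the count was 0 in both pups for all 9 members, and the counts were whole numbers, so the estimator divided no reads with other genes.

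For Panx1 the largest share went to Panx1-201, which GENCODE M21 classes as a target of nonsense-mediated decay, a quality control that destroys messages with an early stop. It took 48.9% of the gene's TPM in pup 2 and 59.5% in pup 1, on 239 ± 27.5 counts in pup 2 and 378 ± 28.9 in pup 1 (± posterior SD of the authors' estimator). The full-length coding transcript Panx1-202, of 426 codons, took 25.5% in pup 2 and 17.8% in pup 1, on 185 ± 32.4 counts in pup 2 and 168 ± 35.6 in pup 1. Panx1-201 skips exon 3 of the 5 exons of Panx1-202, on chromosome 9 from 15010036 to 15010256 (mm10), and its reading frame ends after 112 codons. The counts of these transcripts lay within their summed posterior SDs of each other in pup 2 and farther apart in pup 1. Panx1-202 is 2699 nt long in the deposited files and 5732 nt in M21, whose last exon reaches farther, so the division rests on a shorter model.

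Short annotated transcripts held few counts and a large part of the TPM of Panx1 and Gjc1. Panx1-204, of 357 nt, held 14.9 counts in pup 2 and 21.2 in pup 1, yet 20.7% of the gene's TPM in pup 2 and 22.7% in pup 1. Gjc1-204, a non-coding fragment of 247 nt, held 11.5 counts in pup 2 and 26.5 in pup 1 and 15.1% of TPM in pup 2 and 21.9% in pup 1. Without transcripts under 500 nt, a setting chosen after seeing the data, Gjc1 had 18.3 TPM in pup 2 and 21.3 TPM in pup 1, both below Gja1, and Panx1 had 9.23 TPM in pup 2 and 9.35 TPM in pup 1, both below Gjb5. The main coding forms of Gjc1 share 1 coding sequence of 396 codons and differ in the exon at the 5′ end. Gjc1-201 took 57.0% in pup 2 and 61.2% in pup 1, and Gjc1-202 took 23.5% in pup 2 and 13.2% in pup 1. Gja5-201 held 93.6% of Gja5 in pup 2 and 83.7% in pup 1.

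**Figure D5:**
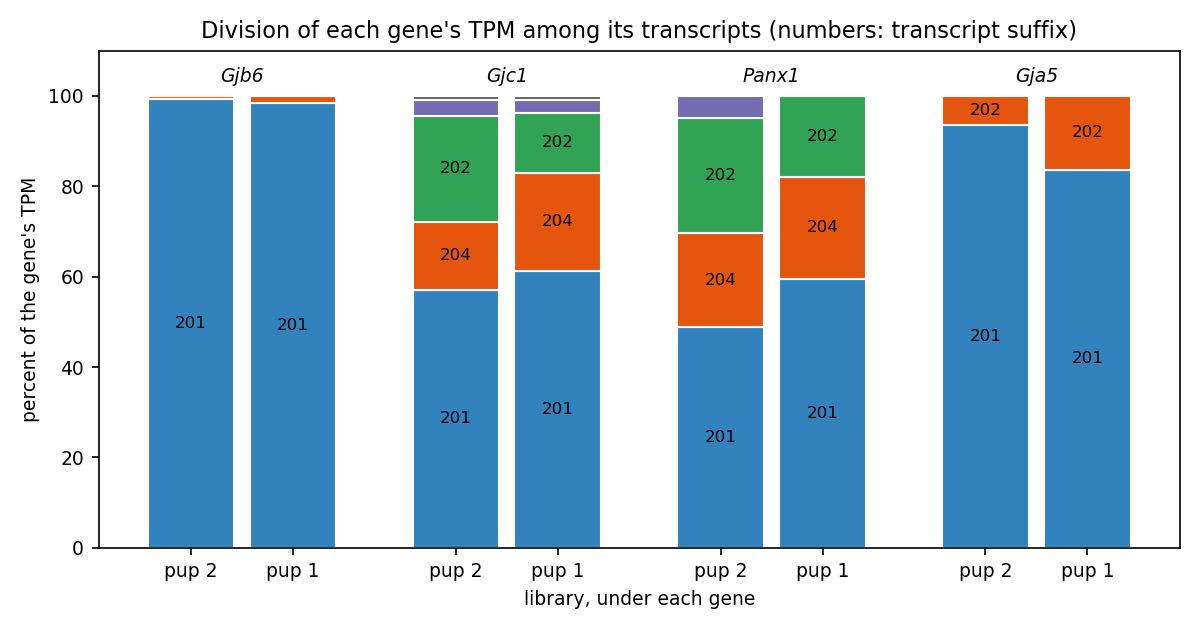
Percent of each gene's TPM given to each annotated transcript, with pup 2 left of pup 1, for 4 of the 9 genes described, with the transcript's number written in each block of 5% or more. Panx1-201 is the largest block of Panx1, at 48.9% in pup 2 and 59.5% in pup 1, and Gjb6 is nearly all Gjb6-201.

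Genes that anchor, move or switch gap junctions were widely present. Of 19 listed partners, 18 were matched (Nov was not). Each of the 18 reached 1 TPM in each pup (median 19.5 TPM), where 58.5% of annotated protein-coding genes did. First came the caveolar protein Cav1, at 1545 TPM in pup 2 and 2116 TPM in pup 1. Next were the tubulin Tuba1a, at 849 TPM in pup 2 and 1164 TPM in pup 1, and the ubiquitin ligase Nedd4, which is known to mark Cx43 for removal, at 287 TPM in pup 2 and 367 TPM in pup 1. Beta-catenin, Ctnnb1, was at 204 TPM in pup 2 and 228 TPM in pup 1. Tjp1, the scaffold ZO-1 that binds the tail of Cx43, was at 13.7 TPM in pup 2 and 16.1 TPM in pup 1. None of the 18 was 2-fold apart between the pups, where 1.98% of the genes whose counts averaged 100 or more were. The median log2 ratio of the 18 was -0.15, with 16 lower and 2 higher in pup 2. Of all genes at that depth, 6979 were lower and 5754 higher.

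Genes that release, sense or break down extracellular ATP, the molecule that Panx1 passes, were mostly present. Of 21 listed, 19 were detected, where 58.5% of annotated protein-coding genes were. Calhm1 had 0 counts and Adora1 stayed below 1 TPM. Of the 18 whose counts averaged 100 or more, none was 2-fold apart, where 1.98% of all genes at that depth were. The median log2 ratio of the 18 was 0.02, with 12 higher and 6 lower in pup 2. Farthest from 0 was Adora2b, at 0.84 (0.72 to 0.97). P2rx1, through which ATP from nerves contracts detrusor muscle, led with 390 TPM in pup 2 and 407 TPM in pup 1. It was followed by the mitochondrial and membrane channel Vdac1, at 169 TPM in pup 2 and 193 TPM in pup 1, and by the ATP-cleaving enzymes Entpd1, at 38.0 TPM in pup 2 and 41.4 TPM in pup 1, and Entpd2, at 34.1 TPM in pup 2 and 33.6 TPM in pup 1. Other ATP release genes were at or above 1 TPM too: the volume-regulated channel subunit Lrrc8a was at 24.4 TPM in pup 2 and 25.7 TPM in pup 1, and Slc17a9, which loads ATP into vesicles, was at 2.95 TPM in pup 2 and 3.21 TPM in pup 1. The receptor P2rx7, often described with Panx1, was at 3.60 TPM in pup 2 and 2.92 TPM in pup 1.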

How the data were processed

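Per the text listings deposited with them, the gene and transcript files of each library are in the layout of the RSEM estimator, on mm10 with GENCODE M4. The aligner, the versions and the use of strand were not given in the sources used here, and a SMARTer Ultra Low RNA kit manual is linked in the labels' protocols. Expected counts, as deposited, are the authors' unnormalised read estimates. The authors' TPM has a fixed total per file, and their deposited FPKM is per transcript length and depth. The percent of a gene's TPM given to each transcript is the authors' estimate. Of 43346 mouse genes, 42462 matched GENCODE M21 on the same assembly. Rounded counts were scaled with TMM (edgeR 4.0.16, R 4.3.3), with a count of 0 set to 3 and no ratio where both pups had 3 or fewer. Python 3.11.15, pandas 2.3.3, numpy 2.4.6, scipy 1.17.1 and matplotlib 3.10.9 served the rest. Alternatives were DESeq2 1.42.0 size factors, upper quartile and total scaling, posterior means, FPKM, other thresholds and pseudocounts, and single pups. The ratio step was tested on simulated data. Promoter windows are RefSeq's (GRCm38.p6). The members and lists were chosen with earlier results of these data known. Named are the family genes and genes overlapping members (some are not reported here), the 4 highest genes of the partner and ATP lists, any of those 2-fold apart, and the highest gene of most marker lists. Tjp1, Lrrc8a, Slc17a9, P2rx7, Calhm1, Adora1, Adora2b, Pecam1, Cdh5, Kdr, Tek, Krt1, Krt10, Krt6a, Krt13 and Gm4491 were named after their values were seen. Intervals cover counting error only, since PCR copies are not told apart.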

Additional observations from a re-analysis of the deposited data

How the results depend on the processing

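In the main analysis 8 of 9 members and 11 of 23 family genes were detected, and 0 members were 2-fold apart. The detected counts stayed within 1.5 times under each threshold and single-pup setting run for them. The third stayed at 0 under the count filters and scalings run for it, which could not have moved it. The largest log2 ratio of a member was 0.55, for Panx2, and these scalings move every gene by the same small shift. Of the 8 members tested between pups, 4 whose counting interval held equality changed sign on log2(TPM + 0.1), to -0.07 for Gjb6, -0.05 for Gja1, -0.06 for Panx1 and -0.07 for Gja5, and likewise on log2(TPM + 1). The directions of Gja4, Gjb5, Gjb2 and Gjc1 were kept in the alternatives run. Mean levels moved by more than the SD of the pups in 5 of 45 alternatives. The single-pup settings among the 45 could not move by this rule, since each of 2 values lies within their SD of the mean. With posterior mean TPM, Panx1 was at 12.2 TPM and Panx2 at 0.42 TPM. With transcripts under 500 nt left out, an alternative chosen after seeing the data, Gjc1 was at 19.8 TPM, Panx1 at 9.29 TPM and Gja5 at 3.35 TPM. In pup 2 alone, and without short transcripts, Gjb5 stood above Panx1, and in pup 1 alone Gjc1 stood above Gja1. The log2 ratio of Gjc1, -0.16 on counts, was -0.35 on log2(TPM + 0.1) and -0.33 on log2(TPM + 1). These were the 2 of 60 ratio values outside the main interval. Among the 60, posterior mean counts gave the main ratio itself, and the other count scalings moved every gene by the same small shift. Only the TPM scales could therefore move genes differently. Shares of the family sum moved in 12 of 18 alternatives. By posterior means Panx2-203 held 44.4% of Panx2 in place of 88.0%. At a mean count of 20 in place of 100, family genes 2-fold apart numbered 3 in place of 0, Gjc3 and Gjb1 among them. No paired analysis was possible because both libraries belong to 1 group. With 2 libraries the SD is itself imprecise, and Panx2, on a mean of 20 counts, is limited by depth.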
